A study of Mus musculus with 6 samples.

Results

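Of the 54929 rows of the deposited count table, 397 carry no gene name but only a running number and a position, and these unannotated transcribed loci are described here. Their identifiers mark them as additions to the annotated genes; the sources used here do not give how they were found, and each is called locus with its running number. RNA was measured in left ventricle of C57BL/6 mice of wild-type genotype, all operated with transverse aortic constriction (TAC), a narrowing of the aortic arch that loads the ventricle with pressure. The control group of 3 libraries received anti-IgG antibody and the treated group of 3 libraries anti-PD-1 antibody, each at 10 mg/kg into the peritoneum every 3 days from day 14 after surgery, and all are labelled 5 weeks. No unoperated mice are among these groups, so every value is from a pressure-loaded heart, and the sources used here give no age. The labels do not say that each library is a separate animal, so p-values measure the spread between libraries.

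Mammalian genomes hold many copies of endogenous retroviruses and LINE-1 elements, whose transcripts can encode the retroviral core proteins (gag), the reverse transcriptase and integrase (pol), the envelope, or the LINE-1 open reading frames. Most copies are kept silent by DNA and histone methylation, with KRAB zinc finger proteins among the factors that recognise them. Other unannotated transcripts are long noncoding RNAs, often started next to the promoter of a protein-coding gene and read away from it, or extensions of an annotated gene. Long noncoding RNAs are in general less abundant and shorter-lived than mRNAs.

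The genome itself was not read here, so the sequences shown are RefSeq entries at the same mouse positions (build GRCm38.p6). The first set is shown because 4 loci that were lower with anti-PD-1 began, on the same strand, inside the promoter window of a RefSeq long noncoding RNA, 250 bases before to 50 after its first base. Of the 18 tested loci that began in such a window, 5 fell and 0 rose, the fifth fall being locus 213. Of the 23 that began in the window of any RefSeq gene, the same 5 fell and 1 rose. Among all tested rows of the table, 10.7% fell and 10.2% rose. These counts are a description. Loci 60, 152 and 246 had enough reads to be tested only through their anti-IgG libraries, as explained below. With the trend of fold change with gene length removed, also described below, only locus 213 of the 5 falls passed. Capitals mark matches, on either strand, to 5 promoter elements: the TATA box as TATAAA, the element bound by the factor NF-Y as CCAAT, the GC box bound by the factor Sp1 as GGGCGG, the element of the TEAD factors known as MCAT as CATTCC, and the element of the GATA factors as AGATAA. No marked match overlaps another. The windows are chr5:111490630-111490929 on the plus strand, chr11:73160161-73160460, chr3:105825804-105826103 and chr17:78199976-78200275 on the minus strand, in the order printed.
locus 281, Gm36149: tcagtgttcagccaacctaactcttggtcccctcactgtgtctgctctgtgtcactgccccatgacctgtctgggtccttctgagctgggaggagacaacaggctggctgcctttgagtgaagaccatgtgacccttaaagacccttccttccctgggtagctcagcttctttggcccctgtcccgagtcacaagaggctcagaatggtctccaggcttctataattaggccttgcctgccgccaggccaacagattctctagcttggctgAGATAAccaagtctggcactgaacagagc
locus 60, Gm35001: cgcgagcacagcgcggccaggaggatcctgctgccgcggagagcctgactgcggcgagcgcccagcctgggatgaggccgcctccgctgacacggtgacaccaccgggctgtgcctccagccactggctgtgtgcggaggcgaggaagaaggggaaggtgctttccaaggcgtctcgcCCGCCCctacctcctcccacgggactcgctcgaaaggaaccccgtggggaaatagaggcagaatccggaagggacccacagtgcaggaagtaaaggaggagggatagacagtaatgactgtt
locus 246, Gm46838: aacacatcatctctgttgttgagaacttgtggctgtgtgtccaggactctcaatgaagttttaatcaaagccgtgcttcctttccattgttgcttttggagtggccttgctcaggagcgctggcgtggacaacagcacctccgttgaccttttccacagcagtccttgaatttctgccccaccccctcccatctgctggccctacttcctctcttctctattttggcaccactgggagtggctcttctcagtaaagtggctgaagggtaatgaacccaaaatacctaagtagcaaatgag
locus 152, Gm32282: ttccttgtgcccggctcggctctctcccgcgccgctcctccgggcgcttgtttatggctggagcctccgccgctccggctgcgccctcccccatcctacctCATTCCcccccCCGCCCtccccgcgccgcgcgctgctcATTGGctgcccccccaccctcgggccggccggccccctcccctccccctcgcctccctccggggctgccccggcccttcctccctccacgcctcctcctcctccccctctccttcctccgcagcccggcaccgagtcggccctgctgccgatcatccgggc

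Locus 281 began at position -26 from the RefSeq first base, locus 60 at -185, locus 246 at 14 and locus 152 at 13. No window held TATAAA, which was found in 13.6% of all 32851 RefSeq windows of this length. GGGCGG was in the windows at loci 60 and 152 and in 35.7% of all windows, and CCAAT was in the window at locus 152 and in 37.4%. CATTCC was in the window at locus 152 and in 14.7% of all windows, and AGATAA in that at locus 281 and in 11.2%. GC content was 54.7% at locus 281, 65.0% at locus 60, 49.3% at locus 246 and 76.3% at locus 152. These are matches of letters, and no binding was measured.

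The second set is the 2 mature forms of the RefSeq microRNA Gm51281, which lies inside locus 366 at chr9:88325743-88325802 but on the minus strand, while the locus is listed on the plus strand. Capitals mark the seed, bases 2 to 8, which differs between the 2 forms.
mmu-miR-12205-5p: uGUGUUUCccaguugguuuga
mmu-miR-12205-3p: aAACCAACugggaaacacaaau

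The loci were mostly short and thinly counted. Of the 397, 266 had a gene length (the summed exon length given in the table) under 1000 bp, 104 of 1000 to 4500 bp, 19 of 4500 to 6000 bp and 8 over 6000 bp. The median locus had 27 reads over the 6 libraries and 44 loci had 0. A summed count of at least 60, the limit applied to every row of the table, was reached by 140 loci, and 257 were not tested. Of the 266 loci under 1000 bp, 31 were tested. Just inside the limit lay locus 152 with 60 reads and loci 158, 246, 317 and 383 with 62 each, and just outside it loci 183 and 236 with 59 each. For 20 of the 140 tested loci the limit would not have been met had both groups had the summed reads of the lower group. Of these, 3 were called higher and 7 lower, so the counts below describe the tested loci and support nothing about the rest. Such loci are said here to have met the limit through the libraries of their higher group. Loci 31, 230 and 366 rose and met the limit through their anti-PD-1 libraries, and loci 30, 60, 137, 152, 218, 246 and 270 fell and met it through their anti-IgG libraries. The median FPKM (fragments scaled by gene length and library, the unit of the authors' second table) of tested loci was 1.15, against 3.136 for annotated rows that met the same limit.

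Reads on the loci made up 0.164%, 0.124% and 0.1402% of the counts in the 3 anti-IgG libraries and 0.2267%, 0.1695% and 0.1814% in the 3 anti-PD-1 libraries. The groups did not overlap, but the gap between the nearest libraries was small. Without locus 108 alone, the shares were 0.156%, 0.115% and 0.133% against 0.151%, 0.137% and 0.134%, and the groups overlapped. The 10 most counted loci held 71.4% of the 196140 reads.

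Libraries held 18063344 to 21093163 counts. Ventricular cardiomyocyte markers were abundant in each (31570 to 39210 summed CPM, reads scaled by library, with anti-IgG and 19250 to 33680 with anti-PD-1, where 3 of 8 markers fell and 1 rose). The 3 atrial markers summed to 0.9221 to 2.202 CPM with anti-IgG and 0.4489 to 0.9643 with anti-PD-1, and the groups overlapped. Of these 3, Sln was at 0 throughout, and 1 met the count limit and did not pass. Summed markers of fibroblasts, endothelial cells, macrophages and erythroid cells overlapped between the groups, and 1 of 4 macrophage markers rose. Summed T cell markers were 2.971 to 4.196 CPM with anti-IgG and 1.232 to 1.646 with anti-PD-1, and B cell markers 3.301 to 6.606 and 0.75 to 1.634. Of 4 markers listed for each, 1 T cell and 3 B cell markers met the count limit. The part of such shifts in the loci's levels was not tested. In whole tissue, fewer cells of a type and less RNA per cell cannot be told apart.

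The loci were unevenly placed. Chromosomes 17, 18 and 19 carried 77 of them, 18.7 per 1000 annotated rows, against 6.28 per 1000 on the other chromosomes. On the same chromosomes, 20.4% of annotated rows had coordinates other than those of GENCODE M21, against 0.143% elsewhere. Of the 33 loci that overlapped a GENCODE M21 gene, 31 lay there. A RefSeq gene was overlapped by 189 of the 397 loci, so being unannotated here refers to the authors' table.

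With anti-PD-1, 12 of the 140 tested loci rose and 20 fell, and 108 did not pass an adjusted p of 0.05 (edgeR quasi-likelihood test, Benjamini-Hochberg adjustment over all tested rows). This is 22.9% of the loci, beside 20.9% of all 14766 tested rows. The share that rose, 8.57%, was below the 10.2% of all rows, and the share that fell, 14.3%, above the 10.7%. The median log2 fold change was -0.21 for the loci and -0.03 for annotated rows. In 52 of 140 loci the 3 values of one group all exceeded those of the other, a share below the 41.0% of all tested rows, and 31 of the 32 called loci were among them, locus 283 being the exception.

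The counts moved with the length of the rows and with the libraries used. In the whole table, fold change followed gene length, as described below. With that trend removed from every library, 15 loci rose and 5 fell, beside 5.15% and 4.99% of all tested rows, so rises made up 15 of 20 calls there and 12 of 32 in the counts as deposited. All 12 rises passed both ways, and 5 of the 20 falls did, at loci 30, 100, 213, 218 and 249. Without anti-IgG replicate 2, 5 loci rose and 1 fell. Falls also numbered 9 without anti-IgG replicate 3, 4 without anti-PD-1 replicate 1 and 11 without anti-PD-1 replicate 3, and without anti-IgG replicate 1 there were 11 rises and 22 falls.

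**Figure D1:**
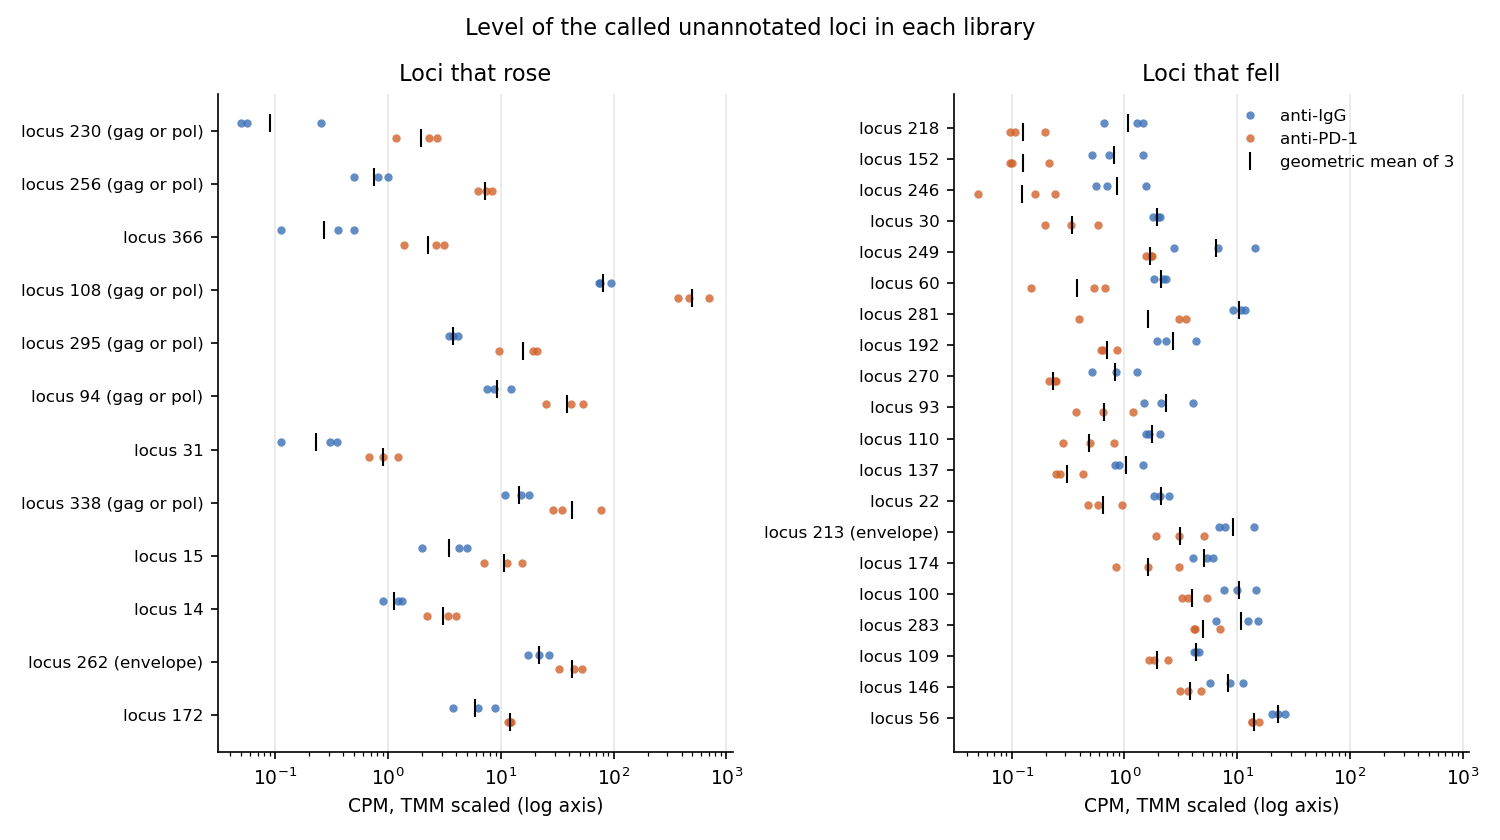
Level of each called locus in every library, in CPM with TMM scaling on a log axis. Each point is 1 library, blue for anti-IgG and orange for anti-PD-1, and the black bar is the geometric mean of 3. The left panel holds the 12 loci that rose and the right panel the 20 that fell. Locus 108 is the most abundant of the rises, and at locus 283 the groups overlap.

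The clearest rises were loci whose sequence matched a retroviral gag or pol protein. The table gives a protein match for 70 of the 397 loci, and grouping by it was chosen after the data had been seen. Of 27 loci matched to gag or pol, 16 were tested, 6 of which rose and 0 fell, a share of 37.5% that rose beside the 10.2% of all rows. One of the 6, locus 230, met the count limit through its anti-PD-1 libraries, so it had to differ to be tested. Their median log2 fold change was 0.60, and 0.82 with the length trend removed, where the same 6 loci passed. All 6 are listed as 1 unbroken block of 2161 to 5818 bp. All 6 also passed under each other scaling, count limit and unit tried, with DESeq2 and with limma-voom, and 5 of them passed without anti-IgG replicate 2 and without anti-IgG replicate 3. At an unadjusted p under 0.05, 6 loci of this group were higher and 0 lower.

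Locus 108 (chr14:32115303-32120673, minus strand, gene length 5371 bp) matched a gag polyprotein. Its counts were 1486, 1686 and 1474 in the anti-IgG libraries and 14164, 6915 and 9662 in the anti-PD-1 libraries. Every anti-PD-1 library was above every anti-IgG library, and replicate 1 was the highest. The level rose from 81.4 ± 11.2 to 514 ± 173 CPM (SD, n = 3 each), a log2 fold change of 2.66 with a standard error of 0.27 (adjusted p by edgeR 0.00127). In mean FPKM over the 6 libraries it ranked 575th among all rows of the table.

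Locus 256 (chr4:133095806-133101623, plus strand, 5818 bp), matched to a gag-pol polyprotein, had 16, 18 and 10 reads with anti-IgG and 166, 116 and 155 with anti-PD-1. The groups were far apart, with a log2 fold change of 3.23 (SE 0.35, adjusted p by edgeR 0.00177). Locus 230 (chr2:177251410-177253570, minus strand, 2161 bp), a gag match, had 5, 1 and 1 reads against 54, 22 and 48, and the largest fold change of the loci, 4.01 (SE 0.68, adjusted p by edgeR 0.00651). It passed the count limit through its anti-PD-1 libraries.

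Locus 295 (chr5:135623626-135628979, minus strand, 5354 bp), matched to gag, had 73, 74 and 69 reads with anti-IgG and 387, 179 and 434 with anti-PD-1, a log2 fold change of 2.13 (SE 0.30, adjusted p by edgeR 0.00417). Locus 94 (chr13:55184286-55189240, minus strand, 4955 bp), matched to pol, had 168, 221 and 150 against 831, 471 and 1120, a log2 fold change of 2.08 (SE 0.30, adjusted p by edgeR 0.00438). At both, anti-PD-1 replicate 2 was the lowest of its group and still above all anti-IgG libraries. Loci 94, 108, 230, 256 and 295 were the 5 rises that passed whichever library was left out, with the limit on locus 230 given above.

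Locus 338 (chr8:33713743-33719247, plus strand, 5505 bp), also a pol match, had 297, 318 and 218 reads with anti-IgG and 1541, 538 and 723 with anti-PD-1. Replicate 1 of the anti-PD-1 group stood well above the other libraries, and the groups did not overlap. The log2 fold change was 1.68 (SE 0.37, adjusted p by edgeR 0.0169), and the adjusted p was 0.0637 without anti-IgG replicate 2 and 0.0645 without anti-IgG replicate 3.

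The other 10 tested gag or pol loci did not pass, with log2 fold changes from -0.30 at locus 95 to 0.80 at locus 378. Among them locus 178 (pol, 5490 bp) had 349, 331 and 154 reads with anti-IgG and 312, 180 and 338 with anti-PD-1, and locus 253 (pro-pol, 6881 bp) 220, 244 and 160 against 254, 239 and 279. Loci of similar length and match thus differed widely in their fold changes, and whether single gag or pol loci differed from each other was not tested. Over all 27 gag or pol loci, reads numbered 2874, 3172 and 2473 in the anti-IgG libraries and 18062, 8929 and 13167 in the anti-PD-1 libraries. Without locus 108 they numbered 1388, 1486 and 999 against 3898, 2014 and 3505, and the groups still did not overlap. Copies of one family can be nearly identical, so the authors' counting may have split or dropped reads between them, and the values belong to these positions only as far as reads could be placed.

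Of the annotated rows of the table whose description names gag or pol, 16 were tested, 2 rose and 3 fell, and the median was -0.37. Whether this differs from the loci was not tested. These rows were taken by the description alone, and they include Stk19 and Gstz1, protein-coding genes without a retroviral name. The falls included Rtl8a and Rtl8b, domesticated gag-derived genes of the X chromosome, and their log2 fold changes were -1.06 and -0.98, whereas Rtl6, another of this family, rose by 0.77. With the length trend removed none of these 3 genes passed. The other 2 called rows passed both ways: Stk19 fell by 1.39 as counted and by 1.24 with the trend removed (adjusted p by edgeR 0.0214), and Gm26809 rose by 0.77 and 0.95 (0.0308).

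The most counted of all the loci was an envelope match. All 12 such loci were tested, 1 rose and 1 fell, and the median log2 fold change was 0.27. Locus 44 (chr11:31545787-31549656, plus strand, 1871 bp) held 35.3% of all reads on the 397 loci and ranked 95th of all rows in mean FPKM. It had 12105, 7998 and 13418 reads with anti-IgG and 11545, 12167 and 12035 with anti-PD-1. The groups overlapped, and the log2 fold change was 0.05 (SE 0.22, adjusted p by edgeR 0.880). Locus 195 (chr19:9828904-9837164, minus strand) had 2125, 983 and 1277 against 2118, 3720 and 1439, with 0.72 (SE 0.40), and did not pass.

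Locus 262 (chr4:3192263-3200529, minus strand, 2963 bp) was the envelope match that rose, with 421, 311 and 539 reads with anti-IgG and 1043, 612 and 934 with anti-PD-1. The groups did not overlap, and the log2 fold change was 0.98 (SE 0.23, adjusted p by edgeR 0.0156). The adjusted p was 0.0889 without anti-IgG replicate 2 and 0.0659 without anti-PD-1 replicate 1. Locus 87, on another chromosome, has the same gene length of 2963 bp and the same span of 8267 bp, and had 1036, 577 and 504 reads against 917, 1135 and 550, with a log2 fold change of 0.27 and overlapping groups.

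Locus 213 (chr2:85958303-85964967, plus strand, 6665 bp) was the envelope match that fell, from 152, 252 and 138 reads to 61, 94 and 40. The groups did not overlap, and the log2 fold change was -1.53 (SE 0.39, adjusted p by edgeR 0.0228). The adjusted p was 0.104 without anti-IgG replicate 2, 0.0819 without anti-PD-1 replicate 1 and 0.0599 without anti-PD-1 replicate 3. Retroviral matches thus included loci that rose, fell and did not pass.

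None of the 9 tested LINE-1 matches or the 4 tested KRAB zinc finger matches passed with edgeR, DESeq2 or limma-voom, and their medians were -0.70 and 0.08. At an unadjusted p under 0.05 in edgeR, 2 of the LINE-1 matches were lower and 0 higher, and 0 of the zinc finger matches differed. The most counted LINE-1 matches were locus 387, with 204, 207 and 118 reads against 121, 117 and 88 (log2 fold change -0.76, SE 0.30), and locus 380, with 134, 120 and 111 against 90, 162 and 197 (0.24, SE 0.30). Among the zinc finger matches, locus 128 had 143, 120 and 65 reads against 99, 148 and 138 (0.17, SE 0.33). In each of these 3 the groups overlapped.

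**Figure D2:**
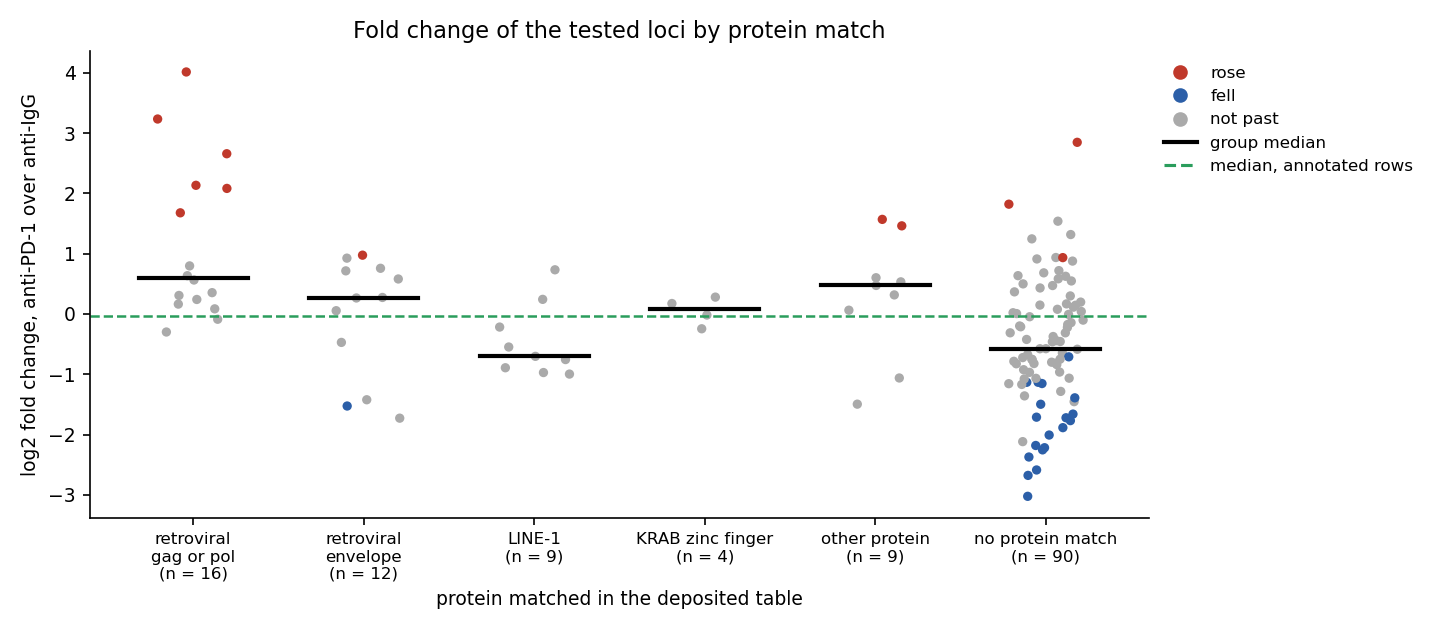
Log2 fold change of each tested locus, anti-PD-1 over anti-IgG, by the protein matched in the deposited table. Points are loci, red where they rose, blue where they fell and grey where they did not pass. Black bars are group medians and the dashed line is the median of annotated rows, -0.03. Of the 16 gag or pol matches 6 rose, and of the 90 loci with no match 19 fell.

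Of the 9 tested loci matched to another protein, 2 rose, and both lie inside Mia3, whose product helps load collagen into vesicles at the endoplasmic reticulum. They are the only 2 loci of the 397 that overlap an annotated row, and both are on the strand opposite to Mia3 and outside its GENCODE exons. Locus 15 (chr1:183356346-183358359, 2014 bp) had 83, 36 and 100 reads with anti-IgG and 141, 285 and 235 with anti-PD-1. Locus 14 (chr1:183353733-183354042, 262 bp) had 26, 22 and 18 against 44, 74 and 71. In neither did the groups overlap. Their log2 fold changes were 1.57 (SE 0.37) and 1.46 (SE 0.39), with adjusted p by edgeR 0.0179 and 0.0251.

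Mia3 itself had 942, 806 and 936 counts with anti-IgG and 1038, 966 and 1050 with anti-PD-1, a log2 fold change of 0.14 (SE 0.16, adjusted p by edgeR 0.558). Without anti-IgG replicate 2 the adjusted p was 0.0681 for locus 15 and 0.0880 for locus 14, and locus 14 also did not pass without anti-IgG replicate 3 (0.0771), anti-PD-1 replicate 2 (0.0648) or anti-PD-1 replicate 3 (0.0709). Whether reads were counted by strand is not stated, so reads from Mia3 introns and from these loci cannot be told apart.

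The 90 tested loci with no protein match held 19 of the 20 falls and 3 of the 12 rises, with a median of -0.58. With the length trend removed, 4 of these loci fell and 6 rose, and the median was -0.09. Many overlap RefSeq long noncoding RNAs. Of the 53 tested loci that overlap a RefSeq lncRNA and no RefSeq protein-coding gene, 1 rose and 11 fell, with a median of -0.82. Of the 29 that overlap a protein-coding RefSeq gene, 4 rose and 5 fell, and of the 55 that overlap none, 6 rose and 4 fell. With the length trend removed, 2 of the loci on lncRNAs rose and 3 fell (median -0.26), 5 of those on protein-coding genes rose and 1 fell, and 7 of those on none rose and 1 fell. In that fit the shares of all tested rows were 5.15% and 4.99%, and those of the loci on lncRNAs 3.77% and 5.66%. Annotated noncoding rows are given beside these for 4 classes. Of 305 lincRNA rows 4 rose and 48 fell (median -0.59), of 231 antisense rows 5 and 17 (median -0.48), and of 442 processed pseudogenes 22 and 71 (median -0.44), beside the 10.2% and 10.7% of all rows. Of 158 rows typed TEC, a class of transcripts awaiting experiment, 6 rose and 4 fell (median -0.11). Of 35 unprocessed pseudogenes, a class added after its values were seen, 6 rose and 3 fell (median -0.02). Differences between these classes and the loci were not tested.

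Locus 218 (chr2:152142449-152143518, plus strand, 552 bp) had the largest fall, with 13, 26 and 26 reads with anti-IgG and 4, 2 and 2 with anti-PD-1. The groups did not overlap, and the log2 fold change was -3.02 (SE 0.62, adjusted p by edgeR 0.0108, and 0.0551 without anti-IgG replicate 2). It met the count limit through its anti-IgG libraries. It ends 43 bp before Tcf15, a basic helix-loop-helix transcription factor gene on the same strand. Tcf15 had 597, 895 and 1111 counts against 261, 543 and 422, and fell too, by 1.13 on the log2 scale (SE 0.31, adjusted p by edgeR 0.0309). With the length trend removed, the log2 fold change of Tcf15 was -0.42 and did not pass (adjusted p by edgeR 0.247).

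Locus 30 (chr10:7212317-7216050, plus strand, 374 bp) had 39, 37 and 36 reads with anti-IgG and 4, 11 and 7 with anti-PD-1, with no overlap. It too met the limit through the anti-IgG libraries. Its log2 fold change was -2.37 (SE 0.51, adjusted p by edgeR 0.0122, and 0.0537 without anti-IgG replicate 2). It starts 80 bp from Cnksr3, a signalling scaffold gene read in the other direction. Cnksr3 had 293, 211 and 280 counts against 458, 532 and 343 and rose by 0.73 (SE 0.23, adjusted p by edgeR 0.0443). With the length trend removed, the log2 fold change of Cnksr3 was 0.78 and did not pass (adjusted p by edgeR 0.0513).

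The 4 loci of the printed promoter windows all had non-overlapping groups, and loci 60, 152 and 246 met the count limit through their anti-IgG libraries. Locus 281 (chr5:111490854-111492384, 752 bp) had 228, 192 and 183 reads with anti-IgG and 8, 66 and 63 with anti-PD-1, with a log2 fold change of -2.18 (SE 0.57, adjusted p by edgeR 0.0291). Anti-PD-1 replicate 1 was far below the other libraries. Locus 60 (chr11:73158074-73160395, 1077 bp) had 36, 42 and 44 against 3, 10 and 14, with -2.22 (SE 0.54, adjusted p by edgeR 0.0182). It starts 26 bp from P2rx5, an ATP-gated ion channel gene on the other strand, whose log2 fold change was 0.19 and did not pass.

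Locus 152 (chr17:78199071-78200012, 700 bp) had 10, 13 and 29 reads against 2, 4 and 2, with -2.68 (SE 0.68, adjusted p by edgeR 0.0218). It lies 236 bp from Crim1, which encodes a membrane protein that binds bone morphogenetic proteins, on the other strand, and Crim1 had a log2 fold change of 0.42 that did not pass. Locus 246 (chr3:105821779-105825839, 416 bp) had 11, 28 and 14 against 1, 3 and 5, with -2.59 (SE 0.70, adjusted p by edgeR 0.0275). These 4 loci did not pass with the length trend removed, nor without anti-IgG replicate 2, where the adjusted p was 0.0972 for locus 281, 0.0705 for locus 60, 0.0626 for locus 152 and 0.126 for locus 246. They were also lost without anti-IgG replicate 3 (loci 152, 246 and 281), anti-PD-1 replicate 1 (60, 152 and 246), anti-PD-1 replicate 2 (246) or anti-PD-1 replicate 3 (152 and 281), where adjusted p was at most 0.0920.

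Locus 249 (chr3:121895883-121900518, minus strand, 4636 bp) is 1 block, overlaps RefSeq Gm34050 and had 283, 122 and 55 reads against 35, 29 and 36. Replicate 1 of the anti-IgG group was high and the anti-PD-1 libraries were close together, without overlap. The log2 fold change was -2.25 (SE 0.52, adjusted p by edgeR 0.0183), and the adjusted p was 0.0605 without anti-IgG replicate 2, 0.0709 without anti-PD-1 replicate 1 and 0.0508 without anti-PD-1 replicate 3. Loci 192, 270 and 93 complete the 10 largest falls, with log2 fold changes of -2.01, -1.89 and -1.77, and locus 270 met the limit through its anti-IgG libraries. The smallest fall was that of locus 56 (chr11:6357214-6359372, 2159 bp), -0.71, with 395, 473 and 462 reads against 272, 290 and 282 and no overlap (SE 0.19, adjusted p by edgeR 0.0255). The adjusted p was 0.109 without anti-IgG replicate 2, 0.053 without anti-IgG replicate 3, 0.0881 without anti-PD-1 replicate 1 and 0.0784 without anti-PD-1 replicate 3. Locus 56 lies 572 bp past the end of Ogdh, which encodes a subunit of the 2-oxoglutarate dehydrogenase complex and had a log2 fold change of 0.32 that did not pass. Each of the 20 falls missed the threshold in at least 1 fit with a library left out, and for locus 192 this was the fit without anti-PD-1 replicate 1 alone (adjusted p 0.0528).

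Locus 366 (chr9:88324744-88327008, plus strand, 2265 bp), which holds the microRNA position printed above, had 7, 2 and 10 reads with anti-IgG and 63, 26 and 55 with anti-PD-1. The groups did not overlap, and the log2 fold change was 2.85 (SE 0.57, adjusted p by edgeR 0.0102, and 0.0511 without anti-IgG replicate 2). It met the count limit through its anti-PD-1 libraries. It ends 189 bp before Nt5e on the same strand, the gene of CD73, the surface enzyme that makes adenosine from AMP. Nt5e had 298, 336 and 288 counts against 494, 236 and 581, with overlapping groups and a log2 fold change of 0.43 (SE 0.28, adjusted p by edgeR 0.280). The libraries are of enriched mRNA, so mature microRNA was not measured.

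Locus 31 (chr10:19933619-19934362, plus strand, 744 bp) ends 110 bp before Map3k5, the gene of the stress kinase ASK1, and had 6, 2 and 7 reads against 18, 23 and 14, so that it met the limit through its anti-PD-1 libraries. Its log2 fold change was 1.82 (SE 0.59, adjusted p by edgeR 0.0491), and it did not pass in any fit with a library left out, where adjusted p ran up to 0.172. Locus 172 (875 bp), with 73, 158 and 124 against 231, 224 and 257, likewise passed narrowly (0.93, SE 0.29, adjusted p by edgeR 0.0429) and in no fit with a library left out, where adjusted p was at least 0.0507.

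Loci near annotated genes were set beside their neighbours. Within 5000 bp of an annotated row lay 74 of the tested loci, of which 3 rose (4.05%) and 13 fell (17.6%). The 62 farther loci held 7 that rose and 7 that fell (11.3% each). Of all tested rows, 10.2% rose and 10.7% fell. Another 2 were on scaffolds with no annotated row. Without anti-IgG replicate 2, 1 near and 4 far loci rose, and 1 near and 0 far loci fell. With the length trend removed, 5 near loci rose and 4 fell, and 8 far loci rose and 1 fell. Of all tested rows, 5.15% then rose and 4.99% fell. By side, 32 of the near loci lay upstream on the other strand (1 rose, 6 fell, median -0.66), 20 upstream on the same strand (2 rose, 2 fell, median 0.09), 15 downstream on the other strand (0 rose, 3 fell, median -0.17) and 7 downstream on the same strand (0 rose, 2 fell, median -0.22).

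For the 59 near loci whose neighbour was tested, the Spearman correlation of the 2 log2 fold changes was 0.15 across loci, and 24 had the same sign. For the 21 farther loci with a tested neighbour it was -0.14. Points share the same 6 libraries and are not replicates. The median locus changed by -0.57 relative to its near neighbour, by -0.34 without anti-PD-1 replicate 1 and by -0.17 with the length trend removed. Among 13 called near loci, the neighbour passed as counted in the same direction for 2 (Tcf15 and Myl2) and in the other for 2 (Cnksr3 and Nipbl). For the other 9 it did not pass. With the length trend removed, Myl2 still passed (adjusted p by edgeR 0.0354). Tcf15 (0.247), Cnksr3 (0.0513) and Nipbl (0.152) then did not.

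Locus 283 (chr5:122093328-122097446, plus strand) lies 3505 bp before Myl2, the ventricular regulatory myosin light chain. It had 301, 224 and 129 reads with anti-IgG and 85, 77 and 147 with anti-PD-1, and the groups overlapped at the lowest anti-IgG library. Its log2 fold change was -1.15 (SE 0.34, adjusted p by edgeR 0.0378), and it did not pass without anti-IgG replicate 1 (0.0970), anti-IgG replicate 2 (0.126), anti-PD-1 replicate 1 (0.126) or anti-PD-1 replicate 2 (0.0927). Myl2 had 58067, 77573 and 106291 counts against 10736, 32976 and 24102 and fell by 1.87 (SE 0.41, adjusted p by edgeR 0.0144).

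Locus 100 (chr14:54996000-55005026, plus strand, 3133 bp) starts 1374 bp from Myh7, the slow myosin heavy chain gene that is a classic marker of pressure overload, on the other strand. The locus had 150, 260 and 199 reads against 73, 60 and 112, without overlap (log2 fold change -1.39, SE 0.31, adjusted p by edgeR 0.0134, 0.0744 without anti-IgG replicate 2 and 0.0516 without anti-PD-1 replicate 1). Myh7 had 31786, 7325 and 5668 counts against 25724, 21178 and 11832, with wide overlap and a log2 fold change of 0.36 (SE 0.66, adjusted p by edgeR 0.728). Locus 110, 60 bp from Nipbl, the cohesin loader gene, had 32, 37 and 31 reads against 10, 15 and 6. It fell by 1.72 (SE 0.50, adjusted p by edgeR 0.0340, 0.114 without anti-IgG replicate 2, 0.0622 without anti-IgG replicate 3, 0.0965 without anti-PD-1 replicate 1 and 0.0983 without anti-PD-1 replicate 3). Nipbl rose by 0.73 (SE 0.20, adjusted p by edgeR 0.0275), and by 0.40 with the length trend removed, where it did not pass.

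**Figure D3:**
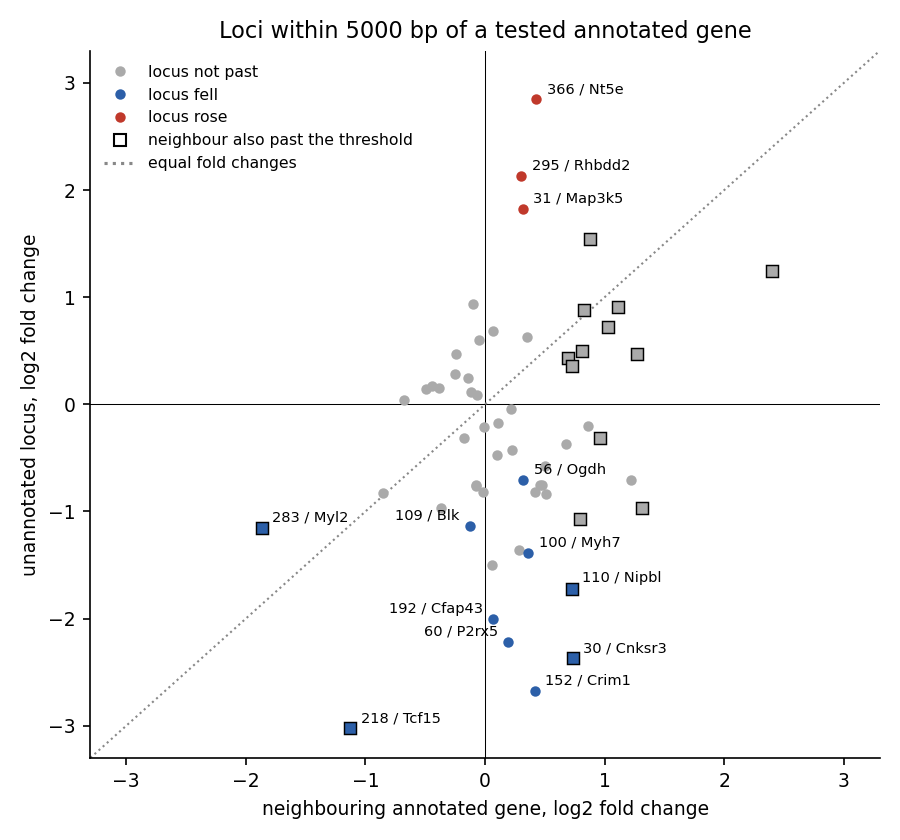
Log2 fold change of each locus within 5000 bp of a tested annotated gene (vertical) against that of the gene (horizontal), 59 pairs. Colours give the locus (red rose, blue fell, grey not past), black-edged squares a neighbour that passed too, and the dotted line equal fold changes. The called pairs are named as locus and gene. Loci 218 and 283 are the called loci whose neighbour passed in the same direction. Fold changes and calls are as counted.

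Fold change rose with gene length in the whole table. Across the tested loci the Spearman correlation of log2 fold change with gene length was 0.41, across annotated rows 0.49, and across loci with the trend removed 0.16. Rows of one table share the same libraries, so this is a description. Of 31 loci under 1000 bp, 3 rose and 8 fell, and the median was -0.82 beside -0.85 for 833 annotated rows of that length (12 rose, 270 fell). Of 88 loci of 1000 to 4500 bp, 4 rose and 10 fell, and the median was -0.19 beside -0.27 for 7084 annotated rows (255 rose, 1064 fell).

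The loci of 4500 to 6000 bp had a higher median than annotated rows of their length. Of these 14 loci, 5 rose and 1 fell, and the median was 0.57 beside 0.09 for 2400 annotated rows (245 rose, 116 fell). All 5 rises are gag or pol matches, of which this class holds 8, with a median of 1.88, while the 5 loci of the class with no match had a median of 0.37. Of 7 loci over 6000 bp, 0 rose and 1 fell with edgeR, DESeq2 and limma-voom alike (at an unadjusted p under 0.05, also 0 higher and 1 lower), and the median was 0.01 beside 0.34 for 4309 annotated rows (985 rose, 106 fell). The most counted there were locus 301 (chr6:51329386-51341087, 1 block of 11702 bp), with 1062, 529 and 499 reads against 869, 647 and 655 (0.01, SE 0.28), and locus 339 with 478, 314 and 152 against 193, 279 and 83 (-0.80, SE 0.53). Neither passed, and their groups overlapped.

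With the length trend removed, class medians of the loci were -0.10, 0.25, 0.48 and -0.27 from the shortest to the longest class, and those of annotated rows -0.14, -0.01, 0.02 and 0.04. The median of 1000 to 4500 bp thus turned from negative to positive. Leaving out 1 library moved it from -0.28 (without anti-IgG replicate 3) to -0.03 (without anti-IgG replicate 1), that of 4500 to 6000 bp from 0.36 (without anti-PD-1 replicate 3) to 0.78 (without anti-PD-1 replicate 2), and that over 6000 bp from -0.23 (without anti-PD-1 replicate 2) to 0.16 (without anti-IgG replicate 1).

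The trend's removal added 3 loci to the rises. Locus 102 had 13, 5 and 6 reads against 29, 19 and 25, locus 116 had 14, 9 and 7 against 20, 29 and 29, and locus 238 had 77, 72 and 52 against 102, 119 and 101. Their log2 fold changes were 1.54, 1.32 and 0.63 as counted and 2.26, 1.96 and 1.27 with the trend removed, where the edgeR adjusted p were 0.0326, 0.0348 and 0.0281. None of these 3 has a protein match, and they are named because they passed with the trend removed and not as counted. Locus 102 met the count limit through its anti-PD-1 libraries.

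**Figure D4:**
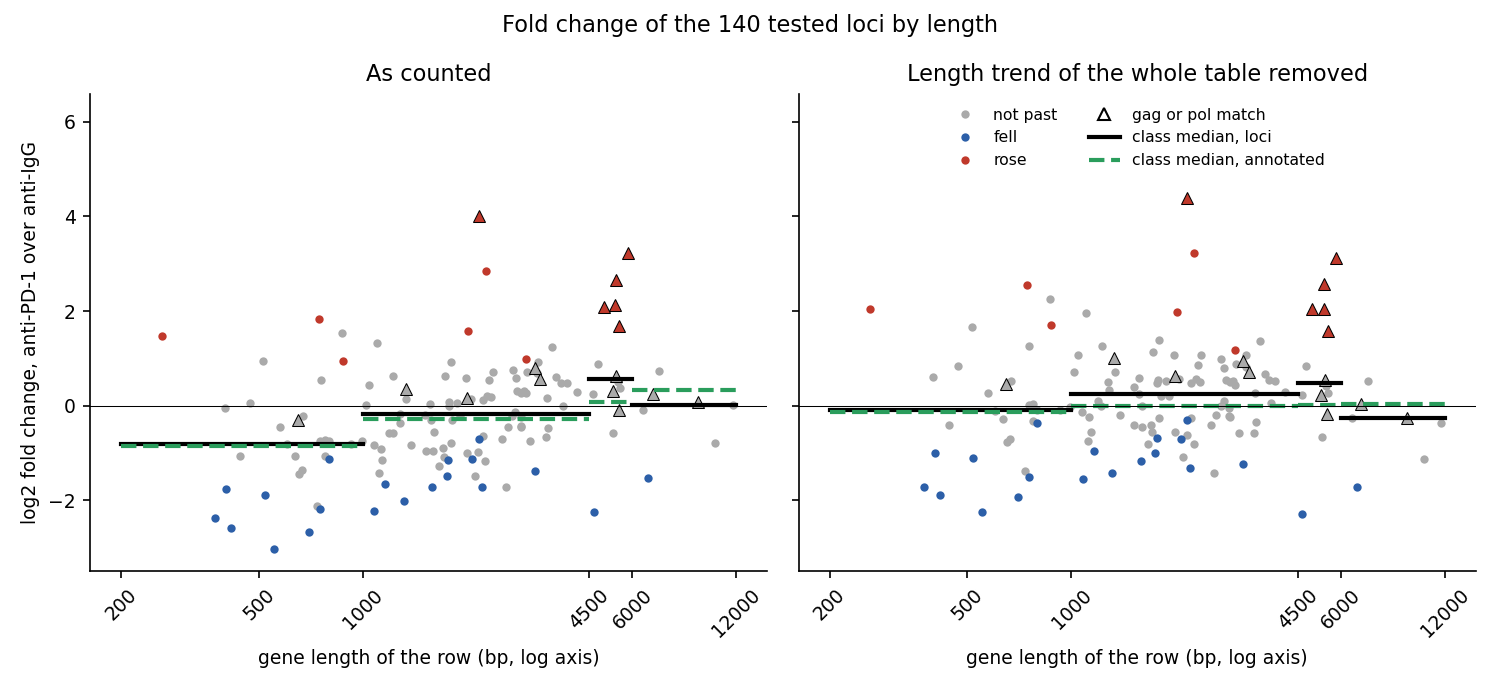
Log2 fold change of the 140 tested loci against gene length (log axis), as counted (left) and with the length trend of the whole table removed (right). Colours give the call as counted in both panels and triangles are gag or pol matches. Solid black lines are class medians of the loci and dashed green lines those of annotated rows, which meet near 0 on the right, while the 5 triangles that rose at 4500 to 6000 bp stay high.

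The loci were also split by their listed exons. Of 49 tested loci in 1 block 9 rose (18.4%) and 6 fell (12.2%), with a median of 0.04. Of 91 with exons spread over a longer span 3 rose (3.3%) and 14 fell (15.4%), with a median of -0.42. The shares of all tested rows were 10.2% and 10.7%, and 5.15% and 4.99% with the length trend removed. With the length trend removed, 9 of the loci in 1 block rose and 2 fell (median 0.39), and 6 of the others rose and 3 fell (median 0.00). Within the loci of 1 block, the 13 gag or pol matches held 6 of the 9 rises, and the 26 with no protein match had 2 that rose and 5 that fell. Whether these shares differ was not tested.

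The table also lists 21 pairs of loci that overlap each other, all on opposite strands, and 4 of them with the same ends. In 14 pairs 1 partner was tested, always the longer one, and in 0 pairs both. The other partner had 0 reads in 9 of the 14 and at most 30 reads. At locus 108, with 35387 reads in all, the partner locus 99 on the plus strand (996 bp) had 0, at locus 262 with 3860 reads the partner locus 251 had 0, at locus 172 with 1067 reads the partner locus 160 had 0, and at locus 148 with 343 reads the partner locus 136 had 0. In these 4 pairs all counted reads thus stand at the longer locus. Whether counting used strand, and how reads lying on both partners were treated, is not stated. The partners' zeros therefore do not show from which strand the RNA came. Locus 148 (pol match, 5264 bp) had 51, 61 and 37 reads against 72, 50 and 72, with overlapping groups and a log2 fold change of 0.31 (SE 0.35).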

How the data were processed

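The 6 libraries of left ventricle mRNA fall into 2 groups of 3, at 18063344 to 21093163 counts each. Per the labels' protocols, mRNA was enriched and made into cDNA with a NEBNext Ultra kit. The authors deposited a table of whole-number read counts per row and a matching table of FPKM values. The submitters' processing notes name featureCounts and mm10; not given in the sources used here are the aligner, the way the unannotated rows were found and whether counting used strand. The protein match of a locus is the authors', per the deposited table.

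From the counts, rows with a summed count of at least 60 were fitted with edgeR 4.0.16 (R 4.3.3; TMM scaling, robust quasi-likelihood F test, 2-sided, Benjamini-Hochberg over all 14766 tested rows, threshold 0.05). No replicate block was used. CPM are TMM scaled. In the fit with the length trend removed, each library's dependence of log2 CPM on log gene length (natural spline, 5 degrees of freedom) was an offset. DESeq2 1.42.0 and limma 3.58.1 were alternatives, with other scalings, count limits, log2(FPKM + 1), log2(FPKM + 0.1) and each library left out. The main edgeR fit and the edgeR fit with the length trend removed were run on simulated counts, and the other alternatives were not. Within a group, chi-square per degree of freedom between libraries was 46.09 to 73.71, so no library repeats another. Loci were placed against annotated rows by the table's coordinates (mm10), RefSeq genes and sequences (GRCm38.p6) and GENCODE M21, whose coordinates 98.3% of matched rows share.

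Named are the 10 largest rises and falls with non-overlapping groups, the 3 most counted loci per length class, loci listed on both strands at the same place, those nearest to the count limit, and their neighbours within 5000 bp; all other loci named were chosen after their values were seen. The members and lists were chosen with earlier results of these data known, and the groupings by protein match, RefSeq overlap and blocks after these data had been seen.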

Additional observations from a re-analysis of the deposited data

How the results depend on the processing

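Of the 12 rises, DESeq2 called 11 and limma-voom 11, and of the 20 falls 18 and 15. Counts of rises stayed within 1.5 times of 12 under every scaling, count limit, tool and unit tried and ran from 5 to 11 with 1 library left out; at an adjusted p under 0.01 they were 5. Falls numbered 5 with the length trend removed, 4 with the replicate block and the length trend removed together, 0 at an adjusted p under 0.01 in edgeR (32 at an unadjusted p under 0.05, and 10 with DESeq2 and 0 with limma-voom under 0.01) and 1 to 22 with 1 library left out. With the replicate number as a block alone, 12 loci rose and 19 fell. Same-numbered libraries deviated together with r of 0.127, -0.146 and 0.219, and anti-IgG replicates 1 and 2 and anti-PD-1 replicate 2 did not correlate best with their own number, so the numbers were not taken to pair the libraries. The median of loci under 1000 bp was -0.10 with the length trend removed, -0.11 with the block and the trend removed, -0.43 on log2(FPKM + 1), -1.12 with a summed count of at least 120, and -1.02 to -0.65 with 1 library left out. That of 1000 to 4500 bp was 0.25 with the trend removed and 0.27 with the block too, and -0.28 to -0.03 with 1 library left out. That of 4500 to 6000 bp was 0.33 on log2(FPKM + 1) and 0.36 to 0.78 with 1 library left out, and that over 6000 bp -0.23 to 0.16. Counting as near only loci within 1000 bp left 6 falls near and 14 far, and within 10000 bp 5 near loci rose; with the trend removed, an alternative added after seeing the data, 5 near loci rose and 4 fell, and 1 far locus fell. With 1 library left out, near rises numbered 1 to 3 and near falls 1 to 13, far rises 4 to 6 and far falls 0 to 9, rises of loci that overlap an annotated row 0 to 2, and rises and falls of the others 5 to 9 and 1 to 22. The difference between a near locus and its neighbour was -0.17 with the trend removed and -0.68 to -0.34 with 1 library left out. Gag or pol rises numbered 5 or 6 with 1 library left out and 4 to 6 with the trend removed as well, an alternative chosen after seeing the data. Values were tallied for 42 loci, those the naming rule gives and those called (loci 102, 116 and 238 are not among them). Of these values, 745 kept their call, 144 no longer passed, 3 newly passed and 13 moved by more than their error. Direction changed in 0 called values, and 16 of 210 values that passed neither way changed sign. The cause of these changes was not tested. Loci near the limit of 60 reads are set by few reads per library, which limits their precision.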
